A study of Homo sapiens with 6 samples.

Results

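The genes described here are 39 genes of the tRNA charging machinery: 20 cytosolic aminoacyl-tRNA synthetase genes, 16 nuclear genes for the mitochondrial enzymes, and 3 scaffold genes (AIMP1, AIMP2 and EEF1E1) of the multisynthetase complex. They were taken by name, without use of their values, from the 11387 genes that the deposited tables gave after transcripts had been summed to genes. All 39 were listed, and all 39 reached the level set for testing, a 6-library mean of 1 FPKM or more, as did 10475 genes of the series. The study measured RNA by sequencing in 92.1, an ocular melanoma cell line grown in culture. The 3 libraries labelled NC come from cells of wild-type genotype, and the 3 labelled shALKBH3 come from a derivative of the same line in which ALKBH3, a demethylase that removes alkyl groups from RNA and DNA, was knocked down. The prefix is the usual one for a short hairpin RNA, and the labels name neither the hairpin's sequence, nor the number of clones, nor whether NC carries a control hairpin. Whether the replicates were grown as separate cultures is not stated in the labels. The p-values therefore rest on the spread among these libraries alone, and that spread may be technical.

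Aminoacyl-tRNA synthetases join each amino acid to its own tRNA and so supply the ribosome with charged tRNA. Cytosol and mitochondria use separate enzymes for most amino acids, all encoded in the nucleus, and GARS and KARS serve both compartments. EPRS is a fusion that charges both glutamate and proline, phenylalanine needs the pair of subunits FARSA and FARSB, and several cytosolic enzymes are held with AIMP1, AIMP2 and EEF1E1 in one large complex. Many cytosolic synthetase genes are targets of ATF4, the transcription factor of the amino acid response, which binds a composite element written TGATGNAA, and WARS is known as an interferon-induced gene. Symbols are those of GENCODE release 29, in which most cytosolic genes lack the final digit of their present names.

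Promoter sequence was read for 33 of the 39 genes from RefSeq (build GRCh38.p14), as 45 windows of 300 bases, 250 before and 50 after each annotated start. The genes without an entry were DARS, LARS, VARS, YARS, AARS2 and VARS2. TGATGNAA, or TTNCATCA on the other strand, was present in 7 of 16 cytosolic genes with a promoter (7 of 21 windows, 33.3%), in 1 of 14 mitochondrial genes (1 of 18 windows, 5.56%) and in 0 of 3 scaffold genes. The share among all 35116 RefSeq promoter windows was 3.62%. The windows of the 8 genes are shown because the letters are those of the ATF4 element. The difference between the classes was not tested. Each line runs 5′ to 3′ on the gene's own strand, and the capitals mark the match.
AARS: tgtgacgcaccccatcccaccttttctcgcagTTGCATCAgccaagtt
CARS: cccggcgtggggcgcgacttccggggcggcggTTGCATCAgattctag
GARS: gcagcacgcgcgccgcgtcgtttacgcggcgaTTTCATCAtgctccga
IARS: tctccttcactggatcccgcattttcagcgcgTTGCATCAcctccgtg
MARS: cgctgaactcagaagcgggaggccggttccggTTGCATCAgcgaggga
NARS: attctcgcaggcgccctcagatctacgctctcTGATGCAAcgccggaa
TARS: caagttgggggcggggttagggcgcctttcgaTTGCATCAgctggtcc
YARS2: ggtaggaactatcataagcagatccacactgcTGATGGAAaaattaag

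In 6 of the 7 cytosolic genes the match had the same letters, TTGCATCA or, in NARS, its reverse complement TGATGCAA. GARS had TTTCATCA. The AARS stretch (chr16:70289678-70289725, minus strand) had its match 187 bases before the start, and the GARS stretch (chr7:30594813-30594860, plus strand) 33 bases before it. The other 5 cytosolic matches lay close to the start. They were CARS (chr11:3057410-3057457, minus strand, 2 bases before), MARS (chr12:57488032-57488079, plus strand, 4 bases before), IARS (chr9:92293695-92293742, minus strand, 13 bases before), TARS (chr5:33440935-33440982, plus strand, 3 bases after) and NARS (chr18:57621807-57621854, minus strand, 15 bases after). The YARS2 stretch (chr12:32756079-32756126, minus strand) had TGATGGAA 197 bases before the start.

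The letters of an interferon-stimulated response element were taken as TTTC, any 2 bases and TTTC again, or GAAA, any 2 bases and GAAA on the other strand. Among the genes with a promoter they were found in WARS and EARS2 only, in 3 of 45 windows or 6.67%, against 3.57% of all windows. The 2 EARS2 windows overlap and held the same match, so the 3 windows hold 1 EARS2 site and 1 WARS site. The WARS match lay 55 bases before the start (chr14:100375385-100375434, minus strand) and is shown because WARS is the member known as interferon-induced.
WARS: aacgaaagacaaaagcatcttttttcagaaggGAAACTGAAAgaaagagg

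HARS and HARS2 start next to each other on opposite strands of chromosome 5. The 84 bases between their starts (chr5:140691371-140691454, plus strand) held 2 copies of the ETS-type letters CGGAAG, 1 on each strand, in capitals.
HARS to HARS2: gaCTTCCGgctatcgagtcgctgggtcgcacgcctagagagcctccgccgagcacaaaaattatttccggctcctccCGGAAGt

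CGGAAG, or CTTCCG, was present in 20 of the 33 genes and in 51.1% of their windows, against 19.5% of all windows. No match of one motif overlapped a match of another. A match is a description of letters and shows neither binding nor a cause, and the tables were made on another build, so these positions are RefSeq's and not the authors'.

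The files give FPKM, or fragments divided by transcript length and by library size, for each transcript, and sequencing depth is unknown. The FPKM of the listed transcripts summed to between 340950 and 361268 in NC and to between 326875 and 333987 in shALKBH3, so every knockdown library lay below every control library. ALKBH3 itself was at 10.5, 10.6 and 9.19 FPKM in NC and at 3.29, 3.60 and 4.24 in shALKBH3, a log2 difference of -1.24 (SE 0.118, adjusted p = 0.0079, limma), so all 3 knockdown libraries matched their label. Of 8 melanocyte markers 1 was listed, MITF, the melanocyte transcription factor, with 7.90, 9.53 and 3.29 FPKM in NC and 11.1, 14.0 and 10.3 in shALKBH3 (limma adjusted p = 0.31). The other 7 were not among the listed genes and so have no values here. The labelled cell type therefore rests on the labels and on 1 marker of 8. Of 6 markers of other cell types 1 was listed, the lysosomal and macrophage gene CD68, with 14.7 to 18.9 FPKM in NC and 33.8 to 37.4 in shALKBH3 (log2 difference 1.10, limma adjusted p = 0.010), and its part in the results below was not tested.

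None of the 39 genes passed the test. Differences are shALKBH3 minus NC on the log2(FPKM + 1) scale, on which the change of a low gene is understated, and the test was limma over all 10475 genes with Benjamini-Hochberg adjustment and a threshold of 0.05. Over all genes 1.28% were called higher and 0.477% lower (1.76% in either direction), 134 and 50 genes, and 153 and 24 when the libraries were scaled to equal sums. The adjusted p of the 39 genes ran from 0.12 for LARS2 to 0.97 for HARS2. The unadjusted p was under 0.05 for LARS2 and RARS, with positive differences, and for AIMP2, SARS, VARS and MARS, with negative ones, 6 of 39 or 15.4%. Over all genes the share was 17.1%, with 8.98% higher and 8.15% lower. The libraries of the groups did not overlap in 3 genes that lay higher in shALKBH3 (LARS2, RARS, RARS2) and 5 that lay lower (SARS, VARS, AARS, AIMP2, PARS2), or 20.5%. Over all genes the share was 24.9%, with 12.9% higher and 12% lower. Both shares of the 39 genes were close to those of all genes, and the small gaps were not tested. The 95% interval of the difference stayed within 2-fold of FPKM + 1 in either direction for 36 of the 39 genes. The exceptions were MARS, TARS and VARS2, and 24 genes stayed within 1.5-fold of FPKM + 1. In FPKM itself the intervals of low genes, such as PARS2 and LARS2, are wider than these limits describe. In a bulk sample, fewer cells with a transcript and less of it per cell cannot be told apart.

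**Figure D1:**
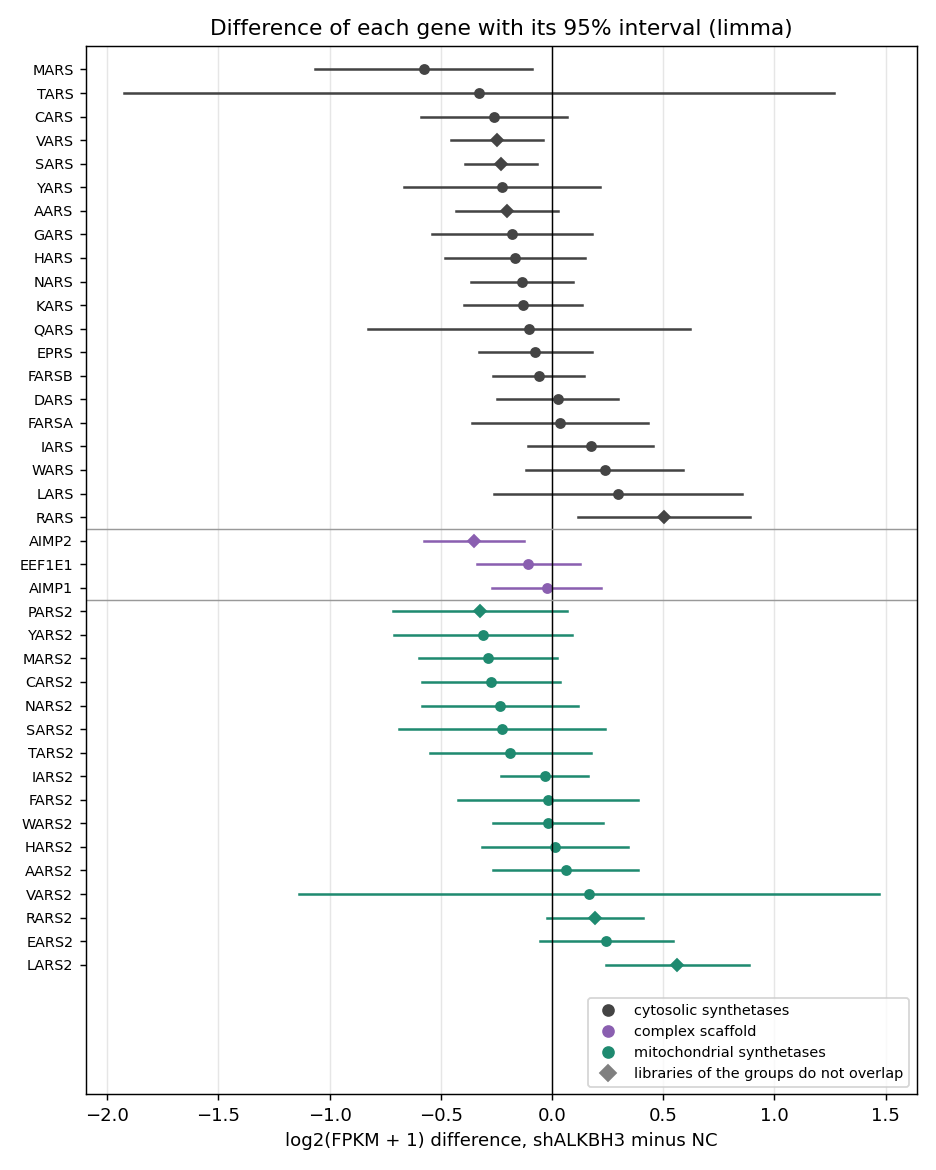
Log2(FPKM + 1) difference of each of the 39 genes, shALKBH3 minus NC, with its 95% limma interval (horizontal axis), ordered by difference within cytosolic synthetases, scaffold genes and mitochondrial synthetases. Diamonds mark the 8 genes whose groups did not overlap, and differences ran from -0.58 (MARS) to 0.56 (LARS2).

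The median difference was -0.13 for the 20 cytosolic synthetases, with 14 negative and 6 positive, -0.03 for the 16 mitochondrial ones, with 10 negative and 6 positive, and -0.11 for the 3 scaffold genes, all negative. The median of all genes tested was -0.01, with quartiles of -0.19 and 0.18. Scaling the libraries to equal sums moved the median of all genes to 0.07, the cytosolic median to -0.04, the scaffold median to -0.02 and the mitochondrial median to 0.06. The 27 negative and 12 positive differences of the 39 genes then became 21 and 18. Over all genes the 5376 negative and 5099 positive differences became 4109 and 6365, so the signs of all genes moved the same way. The deviation of each library from the 6-library mean, as a median over the cytosolic genes, was 0.09, 0.17 and -0.09 in NC and -0.07, -0.10 and -0.07 in shALKBH3. NC replicate 3 therefore lay among the knockdown libraries on this measure. For the mitochondrial genes the same deviations were 0.02, 0.03 and 0.05 in NC and 0.06, -0.01 and -0.09 in shALKBH3, with the groups overlapping.

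In level, which FPKM allows to be compared between genes because it is per length, the cytosolic genes lay well above the mitochondrial ones. The 6-library means ran from 12.1 FPKM (FARSA) to 88.5 FPKM (SARS) for cytosolic genes and from 1.07 FPKM (VARS2) to 53.8 FPKM (IARS2) for mitochondrial genes, with medians in NC of 33.6 and 5.61 FPKM. SARS and GARS, at 88.5 and 83.1 FPKM, led the order and overlapped in their libraries. IARS, NARS, EPRS, AARS and LARS followed with means between 50.1 and 62.4 FPKM, and their libraries overlapped as well. IARS2 and RARS2 (30.2 FPKM) were the only mitochondrial genes with means above the lowest cytosolic one. The next, YARS2, was at 9.89 FPKM, and EARS2, MARS2, LARS2, SARS2, FARS2, WARS2 and TARS2 formed a close group between 4.17 and 5.89 FPKM. AARS2, PARS2 and VARS2 were lowest, at 2.70, 1.77 and 1.07 FPKM.

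**Figure D2:**
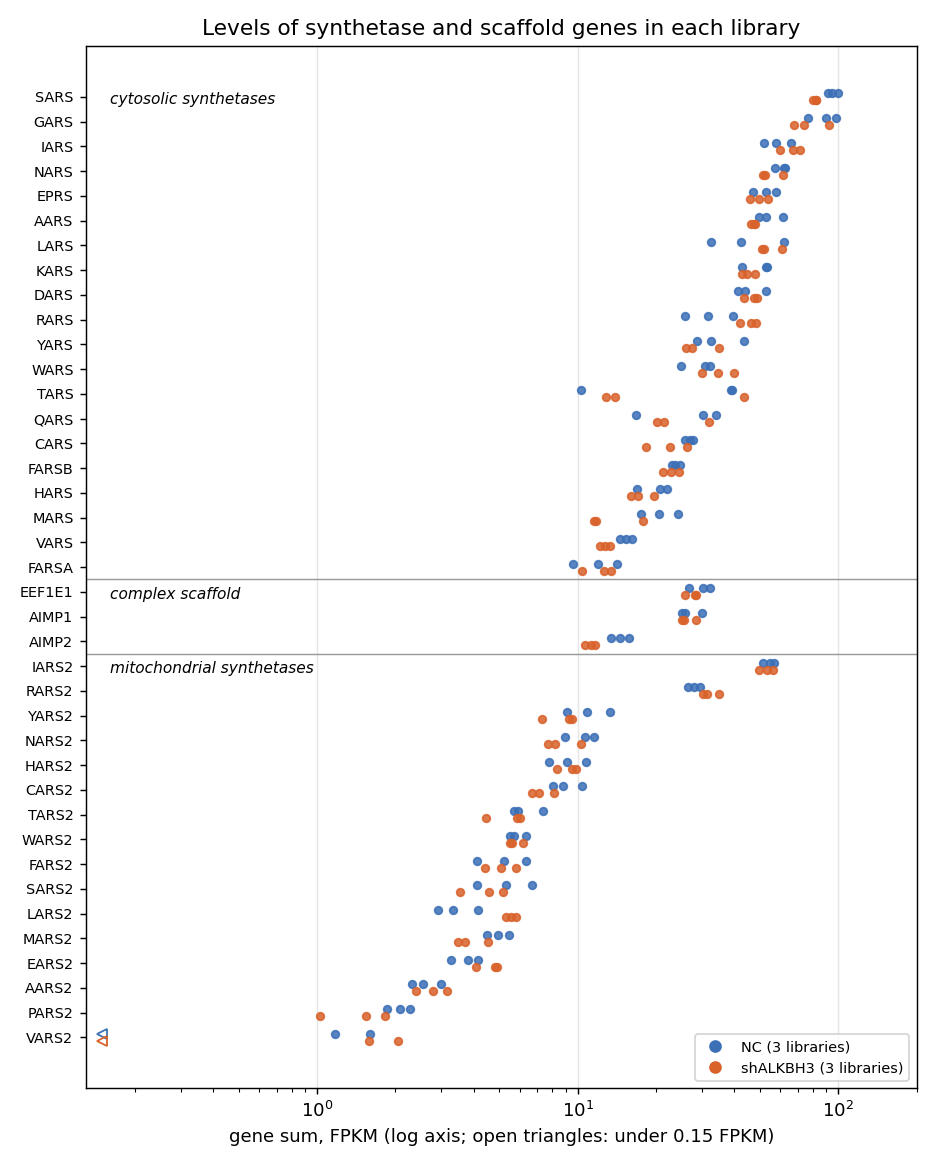
FPKM of each gene in each of the 6 libraries (logarithmic horizontal axis), with cytosolic synthetases, scaffold genes and mitochondrial synthetases in blocks ordered by mean level, and open triangles for the VARS2 libraries under 0.15 FPKM. Cytosolic means span 12.1 to 88.5 FPKM, while all mitochondrial means except those of IARS2 and RARS2 lie under 10 FPKM.

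The multisynthetase complex is formed by 8 of the cytosolic genes here (DARS, EPRS, IARS, KARS, LARS, MARS, QARS and RARS) and the 3 scaffold genes. The 11 genes had a median difference of -0.07, with 7 negative and 4 positive, and of 0.02 with libraries scaled to equal sums. Its members did not share a direction. RARS, the arginine enzyme, was at 31.5, 39.5 and 25.8 FPKM in NC and at 42.1, 48.5 and 46.2 FPKM in shALKBH3. All 3 knockdown libraries lay above the highest control library, with means of 32.3 ± 6.90 and 45.6 ± 3.27 FPKM (SD, n = 3 per group, as for all means here) and a log2 difference of 0.50 (SE 0.159, 95% interval 0.12 to 0.89, limma adjusted p = 0.20).

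MARS, which charges both initiator and elongator tRNA with methionine, pointed the other way. Its values were 24.3, 20.5 and 17.5 FPKM in NC and 11.6, 17.9 and 11.7 FPKM in shALKBH3. Knockdown replicate 2 lay above the lowest control library, so the groups overlapped, and the log2 difference of -0.58 had an interval of -1.06 to -0.09 (limma adjusted p = 0.23). AIMP2, a scaffold that joins the subcomplexes, was at 13.4, 15.8 and 14.5 FPKM in NC and at 10.7, 11.7 and 11.3 FPKM in shALKBH3. Its groups did not overlap, with means of 14.6 ± 1.17 and 11.2 ± 0.491 FPKM and a log2 difference of -0.35 (SE 0.0933, interval -0.58 to -0.12, limma adjusted p = 0.15).

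The other scaffold genes differed little. AIMP1, which also gives rise to a secreted cytokine, was at 25.8, 25.1 and 30.1 FPKM in NC and 25.7, 25.2 and 28.5 FPKM in shALKBH3, and its log2 difference of -0.02 had an interval of -0.27 to 0.22. EEF1E1, the smallest scaffold protein, was at 30.4, 26.8 and 32.1 FPKM in NC and 28.4, 25.9 and 28.2 FPKM in shALKBH3 (log2 difference -0.11, interval -0.34 to 0.12). These intervals leave room for changes of the size they span and do not show that the levels were alike.

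Of the remaining complex enzymes, LARS, the leucine enzyme that also serves as a leucine sensor for mTORC1, was at 32.4, 61.9 and 42.6 FPKM in NC and at 51.0, 60.7 and 51.9 FPKM in shALKBH3. The control libraries alone spanned the knockdown ones, so the log2 difference of 0.30 had an interval of -0.26 to 0.86 (limma adjusted p = 0.53). IARS, the isoleucine enzyme, was at 57.8, 66.1 and 52.0 FPKM in NC and at 59.9, 71.5 and 67.0 FPKM in shALKBH3 (log2 difference 0.17, limma adjusted p = 0.48). The remaining 4 had differences between -0.13 (KARS) and 0.02 (DARS), with EPRS at -0.07 and QARS at -0.10, all with limma adjusted p of at least 0.57. QARS, the glutamine enzyme, varied 2.02-fold between its lowest library, NC replicate 2 at 16.8 FPKM, and its highest, NC replicate 1 at 34.0 FPKM.

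Among the 12 cytosolic genes outside the complex 10 differences were negative and 2 positive, with a median of -0.19 (9 and 3, and -0.10, with equal sums). SARS, the serine enzyme and the most abundant transcript set of the family, was at 94.8, 100.3 and 91.5 FPKM in NC and at 82.2, 82.0 and 79.9 FPKM in shALKBH3. All knockdown libraries lay below all control libraries, by 14.8% in the means (95.5 ± 4.42 against 81.4 ± 1.27 FPKM), with a log2 difference of -0.23 (SE 0.0667, interval -0.39 to -0.07, limma adjusted p = 0.18). VARS, the valine enzyme, was at 14.5, 16.1 and 15.3 FPKM in NC and 13.3, 12.1 and 12.8 FPKM in shALKBH3. It showed the same separation, 15.3 ± 0.810 against 12.8 ± 0.599 FPKM, with a log2 difference of -0.25 (SE 0.0852, limma adjusted p = 0.23).

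AARS, the alanine enzyme, was at 52.8, 61.2 and 49.9 FPKM in NC and at 47.9, 46.2 and 47.4 FPKM in shALKBH3. The gap between the groups was narrow, since the lowest control and highest knockdown libraries were 49.9 and 47.9 FPKM, and the log2 difference of -0.20 had an interval of -0.43 to 0.02 (limma adjusted p = 0.33). CARS, the cysteine enzyme, was at 25.8, 27.7 and 27.1 FPKM in NC and at 26.3, 22.7 and 18.4 FPKM in shALKBH3, where replicate 1 lay within the control range (log2 difference -0.26, limma adjusted p = 0.38).

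WARS, the tryptophan enzyme, was at 32.3, 30.9 and 24.9 FPKM in NC and at 29.96, 40.0 and 34.5 FPKM in shALKBH3. The groups overlapped at knockdown replicate 1, and the log2 difference was 0.24 (SE 0.145, interval -0.12 to 0.59, limma adjusted p = 0.45). It was one of only 2 positive differences outside the complex, the other being FARSA at 0.03. TARS, the threonine enzyme, was the most variable cytosolic gene, with 39.1, 38.9 and 10.3 FPKM in NC and 43.5, 13.9 and 12.8 FPKM in shALKBH3. High and low libraries occurred in both groups, 4.21-fold apart at the extremes, and its interval of -1.92 to 1.27 around a log2 difference of -0.33 leaves its direction unknown. The remaining genes outside the complex, GARS, HARS, NARS, YARS and FARSB, had overlapping groups and differences from -0.23 (YARS) to -0.06 (FARSB).

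**Figure D3:**
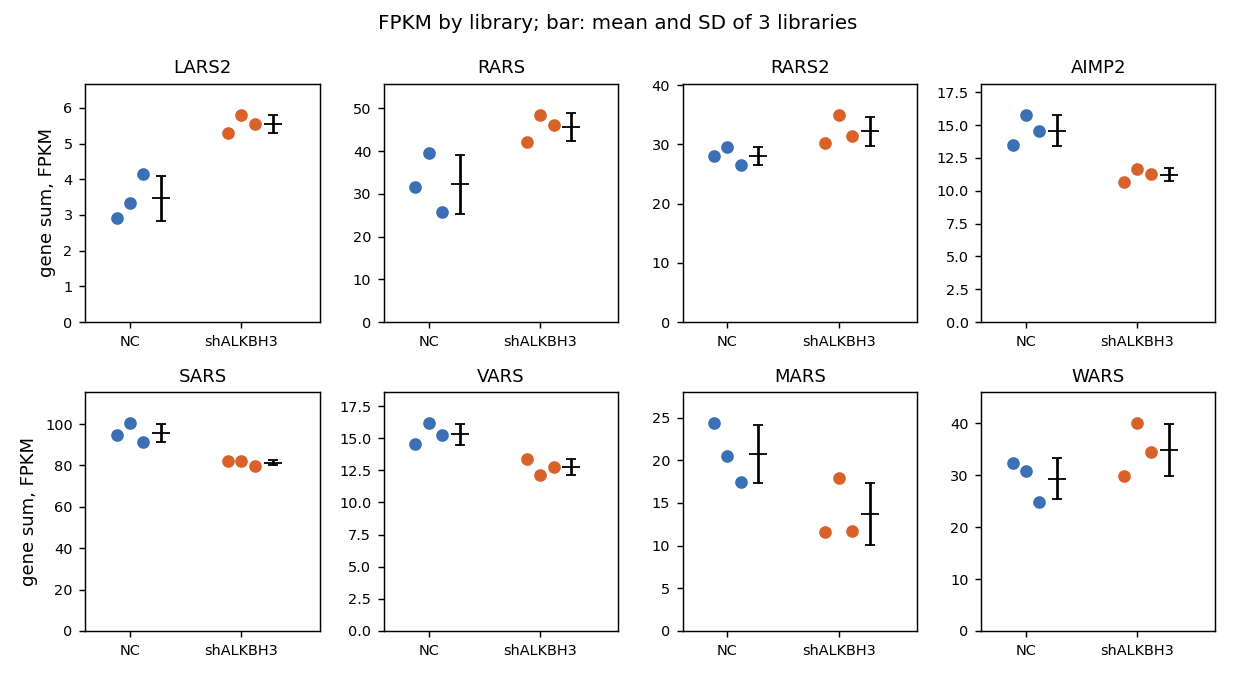
FPKM of 8 genes by library (vertical axes start at 0), with the mean and SD of 3 libraries beside the points. LARS2, RARS and RARS2 lay higher and AIMP2, SARS and VARS lower in all 3 shALKBH3 libraries, while MARS and WARS overlapped between the groups.

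The 13 cytosolic genes reported elsewhere as ATF4-responsive (AARS, CARS, EPRS, GARS, IARS, LARS, MARS, NARS, SARS, TARS, VARS, WARS and YARS) had a median difference of -0.20, with 10 negative and 3 positive and none past the threshold. With equal sums the median was -0.11, with 9 negative and 4 positive, and it was -0.12 without NC replicate 1, -0.11 without NC replicate 2 and -0.13 without shALKBH3 replicate 3. As medians over the 13 genes, the libraries deviated by 0.07, 0.18 and -0.10 in NC and by -0.08, -0.10 and -0.12 in shALKBH3. NC replicate 3 therefore lay among the knockdown libraries for the 13 genes too. The other 7 cytosolic genes had a median of -0.06, with 4 negative and 3 positive. The SD of the library median within groups was 0.10 for both sets, and the contrast between them was not tested. Divided by sequence instead, the 7 cytosolic genes with the TGATGNAA letters shown above had a median of -0.20, with 6 negative and IARS alone positive. The 9 cytosolic genes whose promoter windows lacked the letters had a median of -0.07, with 6 negative and 3 positive. The division by sequence was not tested, and both divisions share most of their genes. ATF4 mRNA was at 203, 196 and 235 FPKM in NC and 191, 203 and 213 FPKM in shALKBH3 (log2 difference -0.06, limma adjusted p = 0.75).

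Among the mitochondrial enzymes, LARS2, which charges mitochondrial leucine tRNA, had the smallest p of all 39 genes. It was at 2.90, 3.32 and 4.16 FPKM in NC and at 5.30, 5.81 and 5.53 FPKM in shALKBH3. All knockdown libraries lay above all control libraries, with means of 3.46 ± 0.639 and 5.55 ± 0.252 FPKM, a mean higher by 60.2% and a log2 difference of 0.56 (SE 0.132, interval 0.24 to 0.88, limma adjusted p = 0.12). When libraries were weighted by their quality the difference was 0.66 with an adjusted p of 0.034 in limma, the only setting of 17 in which any of the 39 genes passed. That setting also called more of the 10475 genes, 320 higher and 160 lower, against 134 and 50 in the main fit. RARS2, the arginine enzyme, also lay higher in all knockdown libraries, with 28.1, 29.6 and 26.5 FPKM in NC and 30.3, 35.0 and 31.4 FPKM in shALKBH3. The nearest libraries of the groups were 29.6 and 30.3 FPKM, and the log2 difference of 0.19 did not pass (limma adjusted p = 0.33).

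PARS2, the proline enzyme, was at 1.86, 2.27 and 2.08 FPKM in NC and at 1.83, 1.55 and 1.03 FPKM in shALKBH3. The groups were separate but close at this low level, with a log2 difference of -0.33 (interval -0.72 to 0.07, limma adjusted p = 0.36). MARS2, the methionine enzyme, was at 4.49, 4.94 and 5.46 FPKM in NC and at 4.52, 3.70 and 3.47 FPKM in shALKBH3 (log2 difference -0.29, limma adjusted p = 0.32). CARS2, the cysteine enzyme, was at 10.4, 8.03 and 8.78 FPKM in NC and at 8.15, 6.69 and 7.11 FPKM in shALKBH3 (log2 difference -0.27, limma adjusted p = 0.34). In both genes knockdown replicate 1 reached into the control range. EARS2, the glutamate enzyme whose promoter window holds the interferon-type letters, was at 3.79, 3.27 and 4.14 FPKM in NC and at 4.83, 4.89 and 4.07 FPKM in shALKBH3, with overlap at knockdown replicate 3 (log2 difference 0.24, limma adjusted p = 0.37).

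The other 10 mitochondrial genes overlapped between the groups. IARS2, the most abundant, stayed between 49.6 and 56.7 FPKM in all 6 libraries, a 1.14-fold range, with a log2 difference of -0.03 (interval -0.23 to 0.16). WARS2 was as steady, with 5.48 to 6.36 FPKM and a difference of -0.02 (interval -0.27 to 0.23). HARS2 (0.01), FARS2 (-0.02) and AARS2 (0.06) had differences near 0, and those of YARS2, NARS2, SARS2 and TARS2 ran from -0.31 to -0.19, with limma adjusted p of at least 0.39. VARS2 was listed at 1.17, 0 and 1.60 FPKM in NC and at 2.05, 1.59 and 0.00588 FPKM in shALKBH3, so 1 library of each group was at or near 0, and no direction can be given.

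Within a library, the ratio of the cytosolic to the mitochondrial gene for the same amino acid is free of that library's scale. Of 16 such pairs 15 had a ratio in every library, VARS with VARS2 being the exception. The cytosolic gene was higher in all 6 libraries in 14 of the 15, and in 5 of 6 libraries for RARS with RARS2. Mean ratios in NC ran from 1.08 for isoleucine (IARS with IARS2) to 25.6 for proline (EPRS with PARS2), and the median over pairs was 4.56 in NC and 4.17 in shALKBH3. EPRS was also paired with EARS2, so these pairs share a gene.

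The groups did not overlap in 2 of the 15 pairs. No such share was computed for ratios of other genes, and among all single genes 24.9% did not overlap. The isoleucine ratio was 1.05, 1.17 and 1.01 in NC and 1.21, 1.27 and 1.25 in shALKBH3. The arginine ratio was 1.12, 1.34 and 0.972 in NC and 1.39, 1.39 and 1.47 in shALKBH3, so RARS lay further above RARS2 in the knockdown libraries although both genes were higher there. No pair had all knockdown ratios below all control ratios. The leucine ratio was 11.2, 18.6 and 10.2 in NC and 9.62, 10.5 and 9.38 in shALKBH3, so the groups overlapped even though LARS2 alone was separated. HARS with HARS2, which share the stretch between their starts printed above, had ratios of 2.67, 2.05 and 1.86 in NC and 1.62, 1.80 and 2.36 in shALKBH3. The differences of the pair's genes had the same sign in 9 of 16 pairs and opposite signs in 7.

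**Figure D4:**
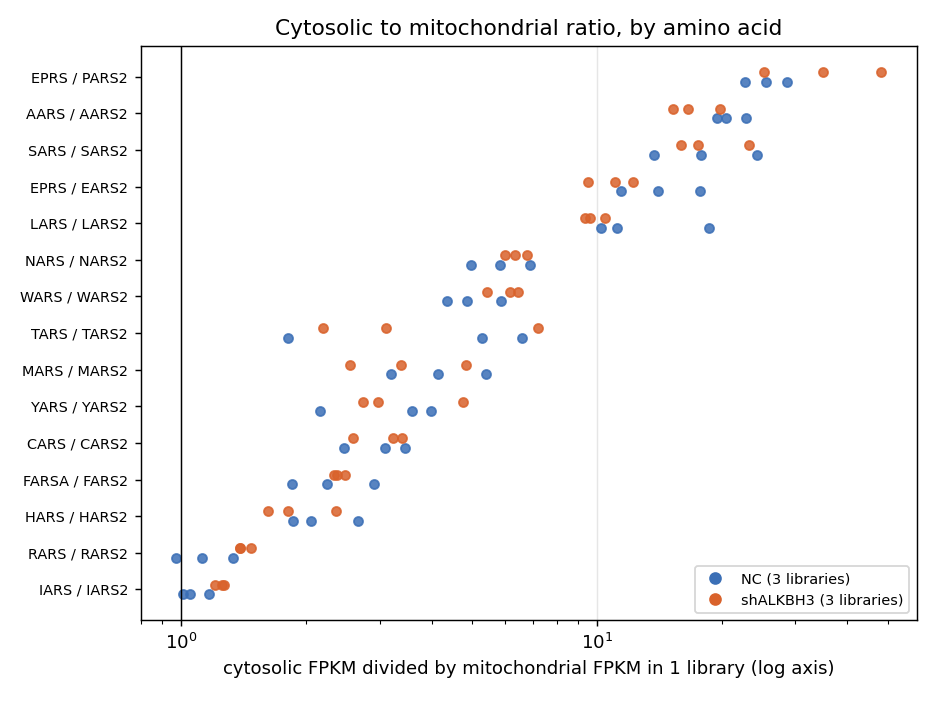
Cytosolic FPKM divided by mitochondrial FPKM within each library for 15 pairs (logarithmic horizontal axis; the vertical line marks a ratio of 1), NC and shALKBH3 in separate colours. Means in NC range from 1.08 to 25.6, and the groups are separate only for IARS with IARS2 and RARS with RARS2.

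The 39 genes had 102 listed transcripts, all protein coding, of which 71 had a mean of at least 1 FPKM and were tested and 31 lay below it. None was called, and the smallest adjusted p was 0.37 (limma). Of all 19698 transcripts tested 0.472% were called, 0.35% higher and 0.122% lower. The unadjusted p was under 0.05 for 4 of the 71 with positive and 5 with negative differences, 12.7% in all, beside 9.74% of all transcripts (4.99% higher and 4.75% lower). Groups did not overlap in 6 higher and 8 lower, 19.7% in all, beside 18% of all transcripts (9.08% higher and 8.9% lower). A gene's FPKM is divided among its transcripts by an estimate, and the division was unstable between libraries of the same group. Of the 27 genes with more than 1 listed transcript, the leading transcript was not the same in all libraries in 9: AIMP1, CARS, EARS2, HARS, HARS2, LARS, LARS2, VARS2 and WARS.

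For LARS, transcript LARS-212 was listed at 0, 49.0 and 0 FPKM in NC and at 39.0, 52.1 and 39.7 in shALKBH3, while LARS-202 was at 27.2, 12.8 and 42.2 in NC and 12.1, 8.60 and 12.1 in shALKBH3. NC replicate 2 thus resembled the knockdown libraries, and neither transcript passed (limma adjusted p = 0.53 and 0.50). IARS-206 was at 21.1, 0 and 24.1 FPKM in shALKBH3 and at 1.07, 0 and 0 FPKM in NC, with most of the remainder in IARS-205. AIMP1-203 was at 12.2, 9.99 and 0.00223 FPKM in NC and 0, 10.5 and 0 FPKM in shALKBH3, while the sum over the gene varied only 1.20-fold between libraries. CARS-214 carried 17.7 FPKM in NC replicate 3 and less than 0.1 FPKM in every other library.

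Some transcripts differed in the direction of their gene's sum, while MARS-233 went the other way. MARS-201 was at 21.2, 15.3 and 7.96 FPKM in NC and at 6.64, 8.62 and 6.52 FPKM in shALKBH3, and MARS-233 had values of 0, 0 and 6.33 FPKM in NC against 2.79, 5.99 and 3.31 FPKM in shALKBH3. NC replicate 3 therefore had the knockdown pattern of MARS transcripts. LARS2-201 was at 2.65, 0.874 and 4.11 FPKM in NC and at 4.71, 5.43 and 5.07 FPKM in shALKBH3, where it held most of the gene sum, whereas NC replicate 2 had 2.45 FPKM in LARS2-203. WARS-203 was at 4.00, 3.43 and 3.12 FPKM in NC and at 4.58, 7.89 and 10.4 FPKM in shALKBH3, with no overlap and a log2 difference of 0.88 (limma adjusted p = 0.44). WARS-201 was at 7.85, 5.95 and 7.71 FPKM in NC and at 6.92, 15.5 and 11.3 FPKM in shALKBH3, where replicate 1 lay within the control range (log2 difference 0.53, limma adjusted p = 0.61). WARS had 9 listed transcripts, the most of any of the 39 genes.

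**Figure D5:**
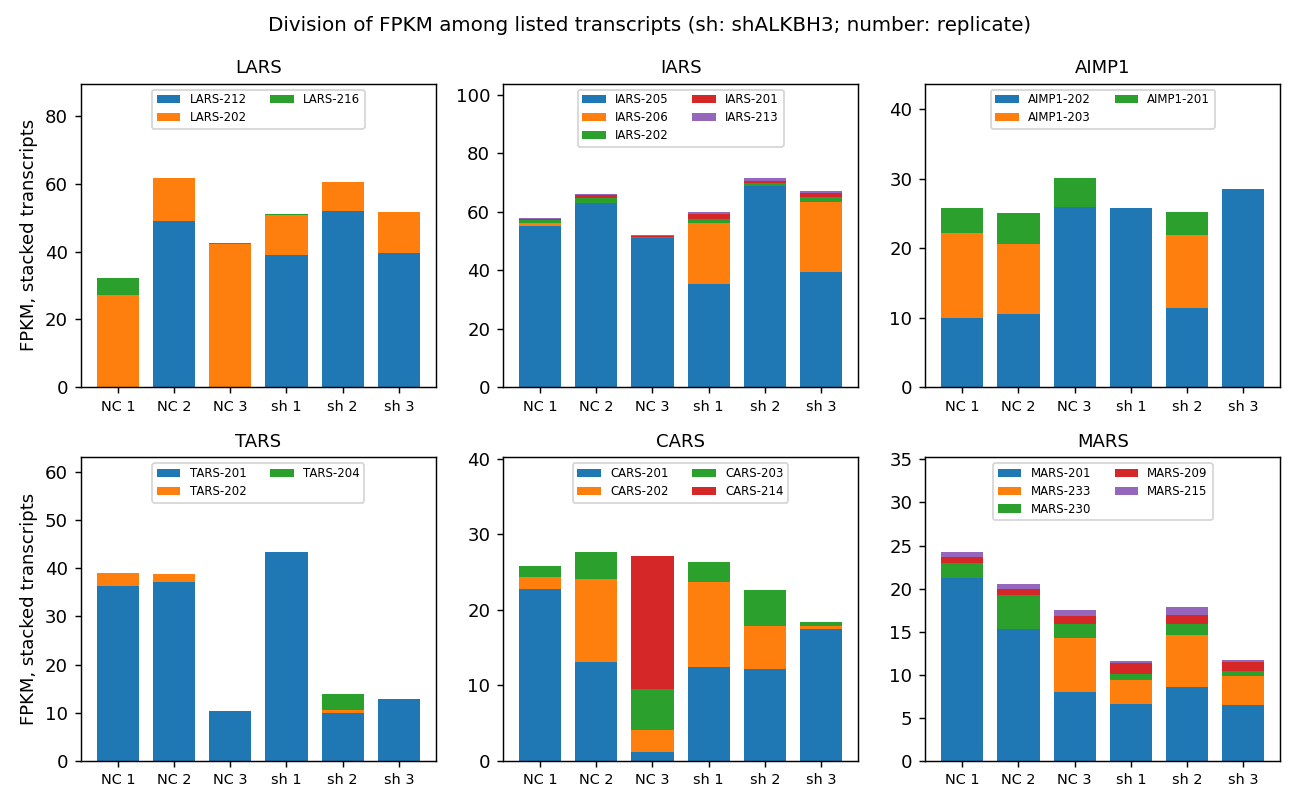
FPKM of the listed transcripts of 6 genes, stacked in each library (NC 1 to 3 and shALKBH3 1 to 3 on the horizontal axis, FPKM from 0 on the vertical axis). In LARS, AIMP1 and CARS the transcript that carries most of the total changes between libraries of 1 group, while the total varies 1.20-fold for AIMP1, 1.51-fold for CARS and 1.91-fold for LARS, and TARS varies in total in both groups.

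Other genes of the pathway were described from 3 lists. The first, charging and tRNA supply, held genes such as the glutamyl-amidotransferase subunits and the CCA-adding enzyme, with 15 of 16 genes tested. None passed (0 higher, 0 lower), and the median difference was -0.11, with 12 negative and 3 positive (9 and 6 with equal sums). Its smallest p belonged to DTD1, which removes D-amino acids from tRNA, with 47.5, 47.0 and 51.8 FPKM in NC and 40.0, 45.2 and 40.5 FPKM in shALKBH3 (log2 difference -0.22, limma adjusted p = 0.27). TRNT1, the CCA-adding enzyme, had a log2 difference of -0.79 with overlapping groups (limma adjusted p = 0.38), and SEPSECS, which makes selenocysteine on its tRNA, one of 0.25 (limma adjusted p = 0.40).

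The second list, the elongation factors that carry aminoacyl-tRNA to the ribosome and recycle the carrier, had 6 genes tested. None passed, all 6 differences were negative, with equal sums as well, and the median was -0.34 against -0.01 for all genes. EEF1A1, EEF1G and TSFM had overlapping groups. EEF1A1 was at 2828, 2859 and 3037 FPKM in NC and at 2874, 2571 and 1448 FPKM in shALKBH3. EEF1B2, an exchange factor subunit, was at 355, 338 and 327 FPKM in NC and at 236, 240 and 156 FPKM in shALKBH3. The groups were far apart and the log2 difference was -0.71, with a limma adjusted p of 0.13. EEF1D, another exchange factor subunit, was at 93.5, 86.6 and 101 FPKM in NC and at 45.8, 77.1 and 81.2 FPKM in shALKBH3 (log2 difference -0.50, limma adjusted p = 0.32). TUFM, the mitochondrial carrier, was at 58.7, 66.8 and 67.7 FPKM in NC and at 51.7, 54.3 and 57.1 FPKM in shALKBH3 (log2 difference -0.24, limma adjusted p = 0.25).

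The third list, the amino acid response, had 26 of 27 genes tested, of which 1 rose and 4 fell past the threshold, beside 1.28% and 0.477% of all genes. The median was -0.11 (-0.03 with equal sums). EIF2AK2, the double-stranded RNA kinase of eIF2, which is better known as an interferon-induced gene, rose from 32.8 ± 3.26 to 67.0 ± 5.23 FPKM (log2 difference 1.01, limma adjusted p = 0.010). The 4 that fell were PHGDH (-0.94, adjusted p = 0.041) and PSAT1 (-0.67, adjusted p = 0.0067) of serine synthesis, ASNS (-0.73, adjusted p = 0.041), which makes asparagine, and CHAC1 (-1.07, adjusted p = 0.040), which breaks down glutathione, all by limma. None of the 13 synthetase genes reported as ATF4-responsive passed the same test. EIF2AK4, the eIF2 kinase that senses uncharged tRNA, had a log2 difference of 0.09 (limma adjusted p = 0.60). Whether the synthetases differed from these genes in response was not tested.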

How the data were processed

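RNA of 3 NC and 3 shALKBH3 samples of the 92.1 line was sequenced from fragmented, random-primed total RNA with dUTP in the second strand, per the labels' protocols. The authors deposited FPKM per transcript, per the file headers. The submitters' processing notes name hg19, HTSeq 0.6.0 and DESeq2, without roles. For the aligner, the FPKM estimator and the annotation a name is not given in the sources used here. Depth is unknown, so no counting interval is given, and the number of libraries limits the precision.

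Transcript identifiers without version were matched to GENCODE release 29 (28796 of 28900), and FPKM were summed per gene. The test was limma 3.58.1 in R 4.3.3 on log2(FPKM + 1), with an empirical Bayes trend, two-sided, and Benjamini-Hochberg adjustment over the 10475 genes whose mean reached 1 FPKM. Genes that share sequence or overlap others may share reads, depending on how the authors counted. The script was checked on simulated data, where 22.4% of changes of 1.5-fold, 47.8% of 2-fold and 87.9% of 4-fold passed the threshold. In that simulation the spreads were shuffled among genes, and the folds were of FPKM + 1. Promoters came from RefSeq and were searched on both strands. Tables and plots used Python 3.11.15, pandas 2.3.3, numpy 2.4.6 and matplotlib 3.10.9.

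Values per library were to be given for members past the threshold, the scaffold genes, WARS and ALKBH3. They were also to be given for the 6 cytosolic and 6 mitochondrial synthetases with the smallest p. Of each other list, the genes past the threshold were to be named, or else the 3 with the smallest p. LARS, IARS, TARS, QARS, VARS2, IARS2, HARS, HARS2, WARS2, ATF4, EIF2AK4 and EEF1A1 were singled out after their values had been seen. So were the transcripts and the pairs. The members and lists were chosen with earlier results of these data known. Alternatives changed the pseudocount, filter, scaling, transcript summing, weights, a length and GC correction, the replicate block and the libraries used.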

Additional observations from a re-analysis of the deposited data

How the results depend on the processing

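Under 17 alternatives no member was called, except LARS2 with library weights (0.66, adjusted p 0.034). Of 655 member values 611 kept their direction and side of the threshold, 43 changed sign and 1 (LARS2) passed. None of the changes of sign was in a called gene. Values that changed sign were, with only the most abundant transcript, CARS 0.72, DARS -0.00046, IARS -0.29, QARS 0.12, EARS2 -0.16, WARS2 0.12 and AIMP1 0.51. With libraries scaled to equal sums they were EPRS 0.018, FARSB 0.031, FARS2 0.061, IARS2 0.060, WARS2 0.062 and AIMP1 0.066. With a length and GC correction they were DARS -0.0093 and FARS2 0.047, with quantile normalization HARS2 -0.019, and with library weights DARS -0.038, VARS2 -0.35, WARS2 0.0022 and AIMP1 0.051. Leaving out each library in turn gave ranges across 0 for DARS (-0.047 to 0.13), FARSA (-0.098 to 0.16), QARS (-0.40 to 0.087), AARS2 (-0.0089 to 0.14), FARS2 (-0.15 to 0.11), HARS2 (-0.093 to 0.12), IARS2 (-0.074 to 0.015), VARS2 (-0.25 to 0.66), WARS2 (-0.064 to 0.035) and AIMP1 (-0.077 to 0.053).

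The median of the mitochondrial genes was -0.16 with the most abundant transcript, 0.060 with equal sums and -0.12 to -0.031 without single libraries, and that of the complex 0.018 with equal sums and -0.074 to 0.0073 without single libraries. The cytosolic median was negative under every alternative, with -0.041 with equal sums and, without single libraries, -0.20 (without NC replicate 3) to -0.081 (without NC replicate 1), and -0.085 without NC replicate 2 or without shALKBH3 replicate 3. The median of the 13 genes reported as ATF4-responsive was -0.26 to -0.11 without single libraries. The counts of all genes called higher and lower were 80 and 25 with the most abundant transcript, 153 and 24 with equal sums, 177 and 82 with the length and GC correction, 320 and 160 with library weights, and 39 to 87 and 9 to 22 without single libraries. The cause was not tested, though fewer samples enter the last.

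With the replicate number as a block 17 genes were called higher and 3 lower. The deviations of same-numbered samples from their group means had correlations of -0.09, 0.08 and -0.01, and not every library correlated best with its own number. Deviations within a group balance out by construction, so these values cannot show whether same-numbered samples were prepared together. No member was called with the block. Depth is unknown, so what it limits cannot be given.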
